A study of Mus musculus with 2 samples.

Results

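The genes described are 10 antioxidant and NRF2-responsive genes of mouse liver: Nfe2l2, Nqo1, Hmox1, Gclc, Gclm, Srxn1, Txnrd1, Sod1, Sod2 and Gpx1. They were chosen by name, and their probes were found on the arrays through the transcript accession of each probe. All 10 were found, by 11 probes, among 20660 named genes, and all 10 belong to the 13881 genes measured well above background on both arrays. One pool of liver RNA came from wild-type (WT) mice and one from CREBH-Tg mice, whose transgene, human cDNA for the transcription factor CREBH in its active form, is expressed mainly in the liver. Both genotypes had the C57B6J background and 12 weeks of the HFHS diet. Cy3-labelled material of each pool went onto 1 Agilent array of 1 colour. The labels used here give neither the promoter of the transgene nor the number, sex or age of the mice pooled. With 1 array per genotype there is no replicate, so no difference was tested, and sizes are given beside the noise between spots. Fewer cells of a type and less RNA per cell cannot be told apart in RNA from whole liver.

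NRF2, the product of Nfe2l2, is a transcription factor that KEAP1 holds in the cytoplasm and marks for degradation. Oxidants and electrophiles modify KEAP1, and NRF2 then enters the nucleus, pairs with small MAF proteins and binds antioxidant response elements in its target genes. In liver these targets make glutathione, reduce quinones and hydroperoxides, and take haem apart. The superoxide dismutases and Gpx1 belong to the basal defence that turns superoxide into hydrogen peroxide and then into water.

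The promoters are shown because the antioxidant response element is the sequence through which NRF2 acts. RefSeq promoter windows of build GRCm38.p6, from 250 bases before to 50 bases after a transcript start, were matched for 8 of the 10 genes, with 10 windows in all, 3 of them of Txnrd1. The core of the element, TGACNNNGC on either strand, lay in 5 of these 10 windows and in 12.4% of all 32851 windows. The median GC content was 62.8% in the 10 windows and 52.7% in all. The 5 windows with a match are given 5′ to 3′ on the gene's strand, with the matching bases in capitals. They lie at chr2:75704614-75704913 (minus strand), chr2:152105274-152105573, chr3:122245307-122245606, chr10:82858956-82859255 and chr16:90220512-90220811 (plus strand).
Nfe2l2: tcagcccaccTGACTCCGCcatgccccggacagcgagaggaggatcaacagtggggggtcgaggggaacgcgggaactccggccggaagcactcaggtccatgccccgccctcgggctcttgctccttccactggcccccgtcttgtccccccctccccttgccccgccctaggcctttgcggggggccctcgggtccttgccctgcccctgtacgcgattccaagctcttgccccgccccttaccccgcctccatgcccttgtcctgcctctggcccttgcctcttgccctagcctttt
Srxn1: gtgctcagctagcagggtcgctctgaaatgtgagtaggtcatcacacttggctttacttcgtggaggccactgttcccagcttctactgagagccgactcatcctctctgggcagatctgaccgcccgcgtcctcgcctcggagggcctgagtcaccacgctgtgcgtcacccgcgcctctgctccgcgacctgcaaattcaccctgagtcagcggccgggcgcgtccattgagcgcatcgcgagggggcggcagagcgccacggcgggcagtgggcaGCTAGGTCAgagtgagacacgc
Gclm: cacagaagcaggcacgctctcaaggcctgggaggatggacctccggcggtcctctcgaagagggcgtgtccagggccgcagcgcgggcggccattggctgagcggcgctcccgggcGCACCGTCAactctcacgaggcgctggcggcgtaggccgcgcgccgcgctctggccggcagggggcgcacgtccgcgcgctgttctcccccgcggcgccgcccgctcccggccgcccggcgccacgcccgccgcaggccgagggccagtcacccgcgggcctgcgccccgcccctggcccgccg
Txnrd1: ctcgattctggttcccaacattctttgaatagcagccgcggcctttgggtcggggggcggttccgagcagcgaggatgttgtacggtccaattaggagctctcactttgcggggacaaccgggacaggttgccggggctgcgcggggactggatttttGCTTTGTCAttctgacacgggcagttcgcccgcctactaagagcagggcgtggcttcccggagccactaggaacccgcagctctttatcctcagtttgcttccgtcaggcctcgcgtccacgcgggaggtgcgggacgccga
Sod1: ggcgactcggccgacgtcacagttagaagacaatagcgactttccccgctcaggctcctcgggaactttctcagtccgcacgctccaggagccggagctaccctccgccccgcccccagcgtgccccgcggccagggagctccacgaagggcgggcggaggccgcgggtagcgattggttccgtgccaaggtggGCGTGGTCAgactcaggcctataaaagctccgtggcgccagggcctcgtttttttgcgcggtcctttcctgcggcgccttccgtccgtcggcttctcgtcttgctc

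The match read TGACTCCGC on the gene's strand in Nfe2l2, and lay on the other strand in the remaining windows, where the gene's strand reads GCTAGGTCA in Srxn1, GCACCGTCA in Gclm, GCTTTGTCA in Txnrd1 and GCGTGGTCA in Sod1. The windows of Nqo1, Gpx1 and Sod2 and the other 2 of Txnrd1 held no match to these letters. Searched on both strands as well, the full cAMP response element TGACGTCA, the unfolded protein response type element TGACGTGG and the E box CACGTG were in 0 of the 10 windows. They lay in 1.79%, 0.676% and 7.15% of all windows. The first 2 of these share the letters TGACGT, and the antioxidant core opens with the same TGAC. A match is a description of the sequence, and the arrays hold no measurement of binding.

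All 11 probes lay well above background on both arrays. Signals are given as the log2 of the processed intensity relative to the array's 75th percentile, and ratios as CREBH-Tg minus WT on that scale. Spot noise was taken from probes present in 5 spots or more, as the SD of the ratio from a single spot. It was 0.048 for genes as bright as most of these, 0.085 in the middle class of signal and 0.20 in the dimmest, and the 95% ranges are 1.96 SD. It leaves out animals, pools, labelling and hybridisation. Both arrays lie on 1 slide, with 12 of 12 hepatocyte markers measured on both.

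None of the 10 genes differed 2-fold or 1.5-fold between the pools. Over all genes 1.33% were 2-fold apart, 0.663% higher and 0.67% lower in CREBH-Tg, and 4.55% were 1.5-fold apart. The greatest difference was in Hmox1, 1.14-fold lower in CREBH-Tg, and the next in Nqo1, 1.10-fold higher. The median log2 ratio of the 10 genes was 0.061, against 0.027 over all genes. It was 0.051 over the 4627 genes of the brightest class of signal, which holds 9 of the 10. Of the 10, 9 lay above 0, as did 56.2% of all genes and 66.1% of the brightest class. That count rests on the scaling between the arrays. With no scaling 1 of 10 lay above 0, and 31.0% of all genes. After loess it was 4 of 10, and 51.4% of all genes. Past the 95% range of spot noise lay 0 genes on the higher side, where 21% of all genes lay, and 1 on the lower, where 13.2% lay. Scaling to the median instead of the 75th percentile put 8 of the 10 past it on the higher side, and 37.3% of all genes. The range is narrowest in the brightest class, at 0.095. There 50.7% of genes lay within 0.1 of 0 as reported, so a larger share lay past it than the 34.1% of all genes.

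**Figure D1:**
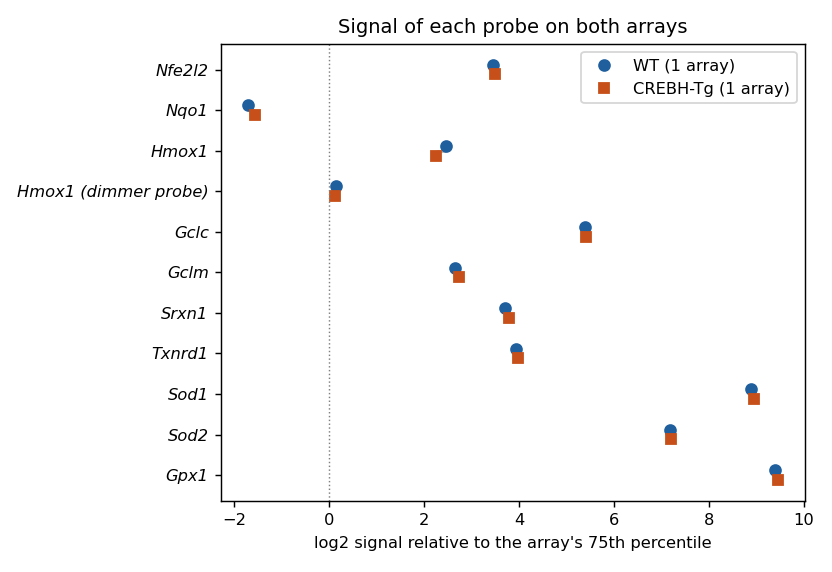
Log2 signal of each of the 11 probes relative to the array's 75th percentile (x axis) on the WT array (circles) and the CREBH-Tg array (squares), with 1 array per genotype. The symbols of a probe lie close together, and the widest gap is that of the brighter Hmox1 probe, 2.46 in WT and 2.26 in CREBH-Tg. Positions of different probes do not compare the amounts of different transcripts.

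The transcript of the regulator itself, Nfe2l2, was at nearly the same level in both pools. Its log2 signal was 3.46 in WT and 3.50 in CREBH-Tg, from processed intensities of 3667 and 3502, and the log2 ratio was 0.043. NRF2 is controlled largely through the stability of its protein, which these arrays do not measure.

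Among its regulators and partners, 12 of 13 were measured on both arrays, none was 2-fold apart, and their median log2 ratio was 0.035. Of these 12, 7 lay above the median of all genes (5 to 7 over 9 scalings). Keap1, the repressor of NRF2, read 3.16 in WT and 3.20 in CREBH-Tg, a ratio of 0.041. The highest was Btrc, a subunit of a ubiquitin ligase, at 0.33, and the lowest the kinase Gsk3b at -0.26. Btrc is dim, and its ratio lay within the 95% range of spot noise, 0.40 in that class. Chosen after its value was seen, the autophagy receptor Sqstm1, whose protein binds KEAP1, was at 0.21.

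Nqo1, a quinone reductase widely used as a readout of NRF2, had the highest ratio of the 10 genes. Its log2 signal was -1.71 in WT and -1.56 in CREBH-Tg, from intensities of 102 and 104, the log2 ratio being 0.14. It is the 1 member in the dimmest class, where the 95% range of spot noise is 0.40, so the difference lay within that noise. Its ratio was above 0 under all 12 settings tried, from 0.033 to 0.23. It was also the 1 gene of the 10 whose unscaled intensity was not lower on the CREBH-Tg array, at 102% of that on the WT array. The other 9 were at 81.0% to 98.8%, and 31.0% of all genes lay above 0 with no scaling.

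Hmox1, the inducible haem oxygenase that opens haem into biliverdin, iron and carbon monoxide, had the lowest ratio. Its brighter probe read 2.46 in WT and 2.26 in CREBH-Tg, from intensities of 1830 and 1482. The log2 ratio was -0.20, past the 95% range of spot noise, 0.095, and it was below 0 under all 12 settings, from -0.30 to -0.11. The dimmer probe of the gene read 0.16 and 0.14, from 372 and 339, a ratio of -0.023 and within its range of 0.17. The probes thus differed by 0.17 in log2 ratio, where the median range between probes of a gene was 0.13 over 3376 genes. With the mean of both probes the ratio was -0.11. Of the 4627 genes in the brightest class, 307 (6.63%) lay lower than the brighter probe. The scanner software gives a signal error on each array. Combined over both arrays, these errors gave an estimate of 0.20 for the ratio of the brighter probe, about as large as the ratio. Unlike the spot noise, this estimate is not widened to a 95% range. Of the 10 genes, 0 had a ratio larger than this error. The error was nearly the same for all 10, 0.20 to 0.22, so it is close to a fixed cut-off.

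Kupffer cells, the resident macrophages of the liver, are a known site of Hmox1 expression, and the macrophage markers went both ways. Of 17 markers 15 were measured on both arrays, with a median log2 ratio of -0.041, which turned to 0.048 with median scaling and 0.0022 under normexp. Above 0 lay 7 of the 15, or 2 with no scaling and 10 with median scaling. Their log2 summed signal was 7.77 in WT and 7.63 in CREBH-Tg. The lowest was the scavenger receptor Marco at -0.95, and the highest the dim receptor Trem2 at 1.14, or 0.70 under normexp background correction. The rest of the 15 were named after their values were seen. Itgam was at -0.56 and Adgre1, which encodes F4/80, at -0.33, while the Kupffer cell lectin Clec4f was at -0.041. Cd5l was at -0.067, Vsig4 at -0.070, Csf1r at -0.089 and the dim Ccr2 at -0.31. With median scaling Clec4f, Cd5l and Vsig4 turned to 0.048, 0.022 and 0.019. The complement genes C1qa, C1qb and C1qc were at 0.053, 0.095 and 0.028, and Lyz2 at 0.038. Timd4 was at 0.048 and the dim Cd163 at 0.13. Of these last 6, Cd163 alone stayed above 0 with no scaling. Their part in the Hmox1 value was not tested.

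**Figure D2:**
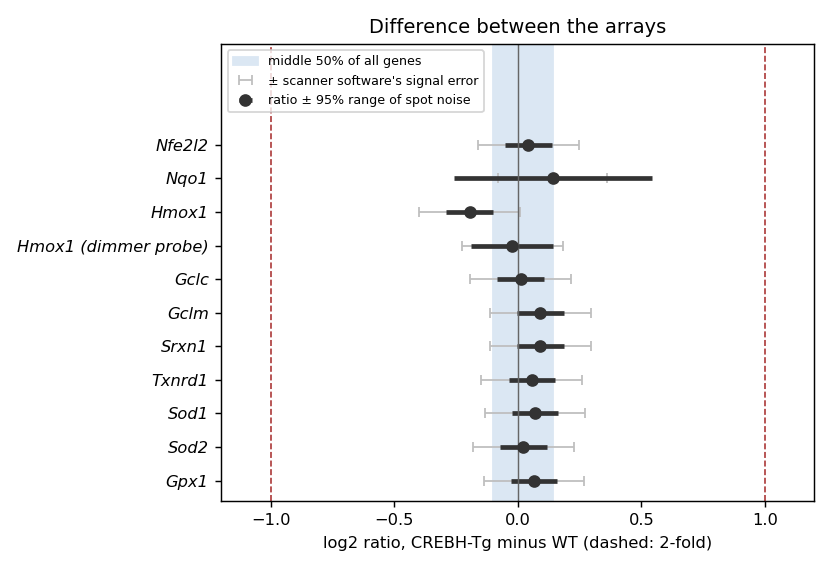
Log2 ratio of CREBH-Tg to WT (x axis) for each probe, with the 95% range of spot noise (thick bars). Thin capped bars give the error estimate combined from the scanner software's signal errors on both arrays. The scanner estimate is not widened to a 95% range, so the lengths of the 2 kinds of bar are not on a like scale. The shaded band spans the middle 50% of all genes, -0.10 to 0.14, the dashed lines mark 2-fold, and no probe reaches them.

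The subunits of glutamate-cysteine ligase, the first and rate-limiting enzyme of glutathione synthesis, were close to equal in both pools. The catalytic subunit Gclc read 5.40 in WT and 5.41 in CREBH-Tg, from intensities of 14033 and 13116, and a ratio of 0.011. The modifier subunit Gclm read 2.66 and 2.75, from 2098 and 2073, a ratio of 0.091. Both ratios lay within the 95% range of 0.095.

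In the wider glutathione list, 15 of 19 genes were measured, with a median of 0.067 and 11 above the median of all genes (9 to 11 over the scalings). None was 2-fold apart. Chac1, which degrades glutathione and is known as a target of the integrated stress response, was highest at 0.74, or 1.67-fold, and 0.63 to 0.82 over the scalings. Anpep, an ectopeptidase, was lowest at -0.12. Glutathione synthetase, Gss, which joins the last residue, was at 0.28, and Ggct, which opens gamma-glutamyl peptides, also at 0.28. These last were named after their values were seen.

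Srxn1 and Txnrd1 act on the thiol side of peroxide removal. Srxn1, sulfiredoxin, restores over-oxidised peroxiredoxins. It read 3.70 in WT and 3.79 in CREBH-Tg, from intensities of 4323 and 4270, with a ratio of 0.091. Txnrd1, the cytosolic thioredoxin reductase and a selenoprotein, read 3.93 and 3.99, from 5075 and 4894, with a ratio of 0.057. The RefSeq table gives Txnrd1 several transcript starts, and 1 probe cannot tell them apart.

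All 17 genes of the thioredoxin and peroxiredoxin list were measured, and none was 2-fold apart. Their median was 0.058, and 12 lay above the median of all genes (8 to 12 over the scalings). The range was narrow, from Msrb2, a methionine sulfoxide reductase, at -0.077 to Prdx4, the peroxiredoxin of the endoplasmic reticulum, at 0.23. Msrb2 turned to 0.012 when scaled to the median. Prdx4 stayed above 0 in 9 of 9 scalings, from 0.13 to 0.32.

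The superoxide dismutases were nearly equal between the pools. Sod1, the copper-zinc enzyme of the cytosol, read 8.88 in WT and 8.95 in CREBH-Tg, from intensities of 156811 and 152580, a ratio of 0.069. Sod2, the manganese enzyme of mitochondria, read 7.17 and 7.19, from 48029 and 45229, a ratio of 0.022. Sod2 is also known as a target of NF-kB, and among 14 measured NF-kB target genes the median was 0.011. There Lcn2, lipocalin 2, was 4.03-fold higher and Cxcl1, a chemokine, lowest at -0.36. Lcn2 is also an acute phase protein of hepatocytes.

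Gpx1, the main glutathione peroxidase of hepatocytes and a selenoprotein, read 9.39 in WT and 9.46 in CREBH-Tg, from intensities of 223539 and 216889. Its ratio was 0.065, within the spot noise. It is a very bright probe, but no spot of the arrays was marked as saturated.

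Among the other dismutases, peroxidases and catalase, 9 of 10 genes were measured and 6 lay above the median of all genes, in 9 of 9 scalings. The list median was 0.10. Gpx3, the secreted plasma glutathione peroxidase, was the 1 gene at 2-fold, reading -1.71 in WT and -0.61 in CREBH-Tg, a ratio of 1.10 or 2.14-fold. It is dim, and it fell short of 2-fold under normexp (0.90) and with no scaling (0.99). Gpx6 was lowest at -0.38, within the noise of its class. Gpx4, which reduces lipid hydroperoxides in membranes, was at 0.30, and Cat, catalase, at 0.088. Both were named after their values were seen, and Cat was at -0.021 with no scaling.

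Apart from Hmox1, the 8 bright genes of the 10 lay within 0.080 of each other, from Gclc at 0.011 to Gclm at 0.091. A share of 25.7% of all genes in the brightest class fell in the same span. The 8 spread over 0.12 after loess, 0.13 after quantile normalization and 0.14 under normexp. Hmox1 lay 0.26 below the median of the other 9 genes, and 0.17 to 0.28 below it over the 12 settings. Hmox1 was the lowest and Nqo1 the highest of the 10 under each of the 12 settings. A constant shift between arrays leaves the distances between genes as they are but turns the sign of most of the ratios, while loess, quantile normalization and normexp change the distances too. The median of all genes was 0.027 as reported, 0.12 with median scaling and -0.082 with no scaling, and the median of the 10 moved with it, from 0.061 to 0.15 and -0.048.

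**Figure D3:**
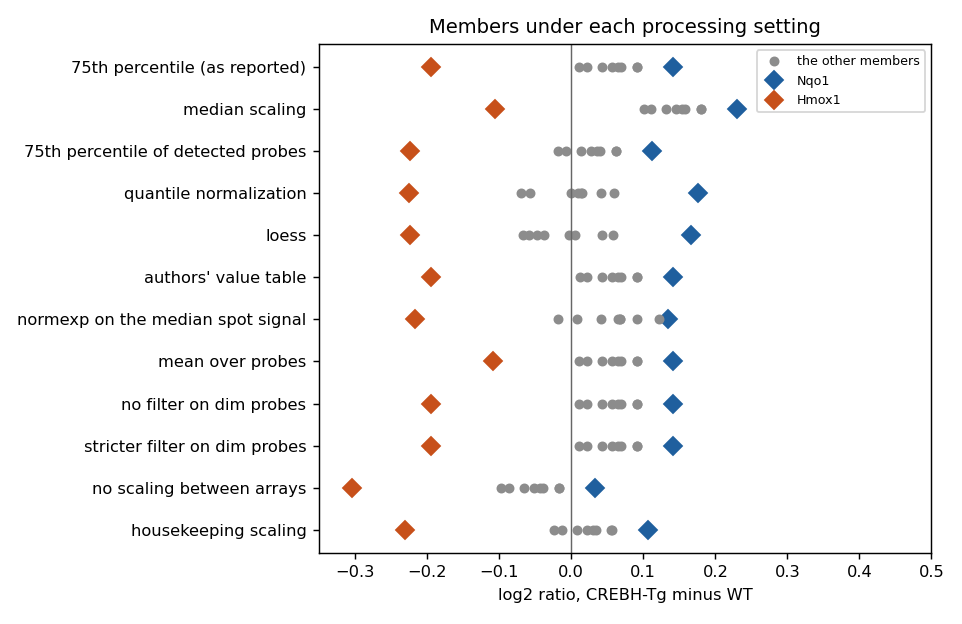
Log2 ratio of CREBH-Tg to WT (x axis) for the 10 genes under each of 12 processing settings (rows), with Hmox1 and Nqo1 as diamonds and the other 8 genes as grey circles. Hmox1 stays at the low end, from -0.30 to -0.11, and Nqo1 at the high end, while the grey group crosses 0 with the scaling.

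Where an antioxidant core was in a printed window, the ratios ran from 0.043 for Nfe2l2 to 0.091 for Gclm. In the genes whose windows held none, they ran from 0.022 for Sod2 to 0.14 for Nqo1. These ranges overlap. Hmox1, at -0.20, and Gclc, at 0.011, had no matched window and are in neither group. Sequence outside the windows was not searched, so this sorting cannot separate genes with an element from genes without one.

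Other genes known as NRF2 targets, 30 of 32 measured, were spread more widely than the 10 and went both ways. Their median was 0.015, with 14 above the median of all genes (10 to 14 over the scalings) and 0 at 2-fold. Osgin1, an oxidative stress-induced growth inhibitor, was highest at 0.39, and the carboxylesterase Ces1g lowest at -0.43. Past the spot noise lay 8 higher and 10 lower of the 30, beside 21% and 13.2% of all genes. These counts were 12 and 8 with median scaling, where 37.3% and 7.23% of all genes lay past it, 7 and 13 after loess (16.4% and 15.7%), and 4 and 13 with no scaling (8.54% and 29.2%). Most of the 30 are in the brightest class, where 50.7% of genes lay within 0.1 of 0 as reported. More of that class than of all genes lay past the range, so the shares of all genes are not shares for like signal. The following were named after their values were seen. The iron store Fth1 (0.35), the carbonyl reductase Cbr1 (0.36) and the aldo-keto reductase Akr1b8 (0.33) were higher in 9 of 9 scalings. The pentose phosphate enzymes named here were lower or within the spot noise. G6pdx, which makes the pathway's first NADPH, was at 0.053, within the 95% range of 0.17, and above 0 in 8 of 9 scalings. Pgd at -0.27, the transketolase Tkt at -0.26 and the transaldolase Taldo1 at -0.10 lay past their range of 0.095 and were lower in 9 of 9. Malic enzyme, Me1, also known as a lipogenic gene, was at -0.21 and lower in 9 of 9.

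**Figure D4:**
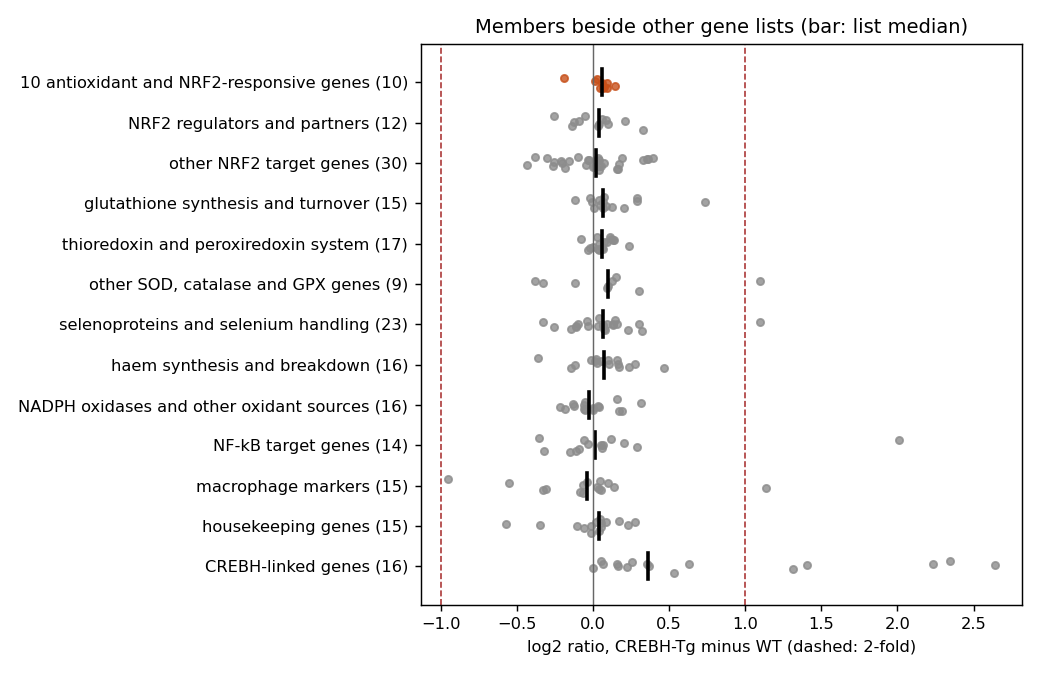
Log2 ratios of CREBH-Tg to WT (x axis) for every measured gene of the 10 antioxidant and NRF2-responsive genes and of 12 other lists, with the number measured in brackets and a black bar at each list's median. Vertical scatter within a row has no meaning. The 10 genes span -0.20 to 0.14, and the CREBH-linked genes at the bottom reach 2.64.

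Genes linked to CREBH in earlier work give the scale of the differences seen on the same arrays. Their median was 0.36 over 16 measured genes, with 5 at least 2-fold higher, and the highest was the lipid droplet protein Cidec at 2.64. The lowest was Creb3l3, the mouse gene of CREBH, at -0.0041. Whether its probe also reads the human transgene was not examined, so its value is no check of the transgene. The 15 housekeeping genes had a median of 0.035, from Tfrc at -0.57 to Tbp at 0.27. Over all 13881 genes 92 were 2-fold higher and 93 lower, or 115 and 77 with median scaling and 42 and 16 under normexp.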

How the data were processed

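Total RNA of pooled liver was labelled from 0.1 µg with Cy3, per the labels' protocols. Per the file headers, scanning used Agilent Feature Extraction 10.10.1.1 and probe annotation lies on mm9. Its processed signal, the intensity used here as deposited, had background subtracted and a trend removed within each array, per the file headers. The authors' value table holds the same intensity times a constant per array (2.59 for WT, 2.68 for CREBH-Tg), for which no header or label gives a rule.

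The log2 of the processed signal minus the array's 75th percentile (333 and 309) was used. Control spots and 300 outlier spots were left out, and spots of a probe were averaged. A probe counted as measured with more than 50% of spots well above background, and a gene took its brightest probe measured on both arrays. Accessions matched to a RefSeq table of GRCm38.p6 named 27233 of 55677 probes. The members and the 18 other lists were chosen with earlier results of these data known. Of the lists, all genes at least 2-fold apart (up to 4), and the highest and lowest were named. Other genes are said to be chosen after their values were seen. For the CREBH-linked list the highest and lowest alone are given. No test was run, with 1 array per genotype, and the number of arrays limits the precision. The gene summary was tested on simulated data. Normexp used an offset of 50 on the median spot signal, since the mean is not a column of the files, and loess a span of 0.3. Python 3.11.15, numpy 2.4.6, pandas 2.3.3, matplotlib 3.10.9, R 4.3.3 and limma 3.58.1 were used.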

Additional observations from a re-analysis of the deposited data

How the results depend on the processing

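The median log2 ratio of the 10 genes, 0.061 as reported, was 0.15 with median scaling, 0.011 after quantile normalization, -0.020 after loess and -0.048 with no scaling. The count above 0, 9 as reported, was 4 after loess and 1 with no scaling, and 6 to 9 under the other alternatives. The share of all genes above 0 moved as well, from 56.2% as reported to 51.4% and 31.0%. It was 47.8% to 73.4% under the other alternatives. No gene of the 10 was 2-fold apart under any alternative, nor at a threshold of 1.5-fold. Of the single ratios under the alternatives, 80 moved by less than the spot SD of the gene's class and 30 by more. For the medians of the other lists these counts were 139 and 59. Each median was set against the spot SD of the brightest class, 0.048, whatever the signal of its genes, and that SD is not the noise of a median. Part of the 80 was set in advance. The 2 other filters on dim probes kept the same probes for the 10 genes, and the mean over probes could move Hmox1 alone. The authors' values differ by a constant per array, which the scaling removes. No scaling and scaling to housekeeping genes were chosen after seeing the data. No paired analysis was possible because each genotype has 1 array, and for the same reason no replicate could be left out. Spot noise covers neither animals nor pools, so differences as small as these cannot be told apart from variation between pools.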

Other observations

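Other redox lists held genes on both sides of the median of all genes. Selenoproteins and genes of selenium handling, all 23 of them measured, had a median log2 ratio of 0.067, or -0.041 with no scaling. Past the 95% range of spot noise lay 8 higher and 4 lower, beside 21% and 13.2% of all genes. With median scaling these counts were 14 and 1, beside 37.3% and 7.23%. With no scaling they were 4 and 7, beside 8.54% and 29.2%. Most of the 23 are in the brightest class of signal, so these shares of all genes are not shares for like signal. Of the 23, 15 lay above the median of all genes (12 to 15 over 9 scalings), from the dim Gpx2 at -0.33 to Gpx3 at 1.10, which is 2-fold apart and stands in 2 of the lists. Selenop, the selenium carrier that the liver secretes, was at 0.13, and Dio1, the deiodinase of liver, at -0.11, both named after their values were seen. Genes of haem synthesis and breakdown other than Hmox1 had a median of 0.073 over 16 genes, or -0.036 with no scaling. Of these 16, 8 lay past the spot noise on the higher side and 2 on the lower, beside 21% and 13.2% of all genes. After loess these counts were 5 and 2, beside 16.4% and 15.7%. With no scaling they were 3 and 5, beside 8.54% and 29.2%. Most of the 16 are in the brightest class too, with the same limit on these shares. There Hpx, the plasma haem carrier hemopexin, was highest at 0.46 and the erythroid synthase Alas2 lowest at -0.37, while Alas1, the synthase of hepatocytes, was at 0.012. Hpx and Hp, at 0.28, are acute phase proteins. Biliverdin reductase Blvrb was at 0.16 and the constitutive oxygenase Hmox2 at 0.11. Alas1, Hp, Blvrb and Hmox2 were named after their values were seen.

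NADPH oxidases and other oxidant sources had a median of -0.027 over 16 genes, or 0.062 with median scaling. Past the spot noise lay 3 on the higher side and 1 on the lower, beside 21% and 13.2% of all genes. The list ran from the xanthine oxidoreductase gene Xdh at -0.22 to the dim Noxa1 at 0.32. Hepatocyte markers had a median of 0.079, from Ass1 at -0.21 to Apoa1 at 0.35, and the median turned to -0.045 after loess, -0.015 after quantile normalization and -0.030 with no scaling. Medians of the other cell types were 0.21 for 10 lymphocyte markers (Cd79a at -0.040 to Cd3d at 1.10), 0.21 for 12 stellate cell markers (Pdgfrb at -0.043 to Lum at 0.72) and 0.052 for 10 endothelial markers (Lyve1 at -0.34 to Emcn at 0.48). They were -0.17 for 7 cholangiocyte markers (Krt23 at -0.55 to Krt19 at 0.028) and 0.070 for 7 red cell and platelet markers (Slc4a1 at -0.37 to Ppbp at 0.82). The lymphocyte and stellate cell medians were 0.14 and 0.13 under normexp and 0.10 each with no scaling, and Cd3d, 2-fold apart as reported, was at 0.61 and 0.99 there. With no scaling the endothelial median turned to -0.057, and the lowest value of the red cell and platelet median over 9 scalings was -0.042, while the cholangiocyte median ran from -0.28 to -0.078. Their part in the values of the 10 genes was not tested.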
